A study of Rattus norvegicus with 4 samples.

Results

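The genes of the Hippo pathway were examined in Schwann cells (SCs) of the rat, which ensheath and myelinate axons of peripheral nerves, after expression of an antisense RNA from the Egr2 promoter (Egr2-AS). The 10 genes were taken by name: the coactivators Yap1 and Wwtr1 (which encodes TAZ), the DNA-binding factors Tead1, Tead2, Tead3 and Tead4, the kinases Lats1 and Lats2, the upstream activator Nf2 and the angiomotin Amotl2. Of the 17949 genes in the deposited table, 9 were these genes, and Tead4 was not analysed here. A row named Taz encodes tafazzin, an unrelated mitochondrial enzyme, and was not used for TAZ. The primary SCs came from rat sciatic nerve, grew in serum with forskolin and heregulin-β1, and were infected with a lentivirus for 48 h. One group received a control virus carrying GFP (Lenti-GFP, n = 2) and the other a virus that overexpresses the Egr2-AS (Lenti-AS, n = 2). The Egr2-AS vector was built on a plasmid with a red fluorescent reporter and the control on one with a green reporter, and the effect of the reporter and that of Egr2-AS cannot be told apart.

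Hippo signaling restrains growth by keeping 2 coactivators out of the nucleus. The MST kinases Stk3 and Stk4, with the scaffold Sav1, activate LATS kinases bound to Mob1 proteins, and LATS kinases phosphorylate YAP and TAZ, which are then held in the cytoplasm or degraded. Merlin, the product of Nf2, promotes LATS activity at the membrane, and loss of Nf2 gives rise to schwannomas. Unphosphorylated YAP and TAZ bind TEAD factors on DNA and induce genes such as Ccn1, Ccn2 and Ankrd1, as well as their own inhibitors Lats2 and Amotl2. In SCs, YAP and TAZ are required for the sorting and myelination of axons. The pathway is regulated largely by phosphorylation and localization, which RNA counts do not measure. The study scored footprints of DNA-binding factors in the region that contacts the Mtor promoter. In part of that region it reported significantly higher scores with the Egr2-AS for several classes, TEA domain factors among them. The comparison here asks whether the RNA of the TEAD factors, of their coactivators and of the kinases above them differed between Lenti-AS and Lenti-GFP.

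TEAD factors bind a short element, CATTCC on one strand and GGAATG on the other. RefSeq promoters (assembly GRCr8, from 250 bases before to 50 bases after each gene's start) were found for 6 of the 10 genes and for 14 of 20 known YAP/TAZ targets. Either string of letters was present in 2 of these 6 and in 4 of these 14 promoters, against 14.2% of all 33469 promoters of that length. The promoters of the members that hold it, Yap1 and Amotl2, and those of the classical targets Ccn1 and Ccn2 are shown because the levels of these genes are followed below. They run 5′ to 3′ on the strand of the gene, with the element in capitals. They lie on GRCr8 at chr8:13451388-13451687 (minus strand, Yap1), chr8:112182376-112182675 (plus strand, Amotl2), chr2:237225640-237225939 (minus strand, Ccn1) and chr1:22624565-22624864 (minus strand, Ccn2).
Yap1: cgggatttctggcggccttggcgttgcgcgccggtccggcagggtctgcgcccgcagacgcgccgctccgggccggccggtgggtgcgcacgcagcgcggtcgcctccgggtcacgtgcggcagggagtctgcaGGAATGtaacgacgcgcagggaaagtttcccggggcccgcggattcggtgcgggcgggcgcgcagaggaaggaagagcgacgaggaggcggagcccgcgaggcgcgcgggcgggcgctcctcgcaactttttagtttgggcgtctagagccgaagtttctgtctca
Amotl2: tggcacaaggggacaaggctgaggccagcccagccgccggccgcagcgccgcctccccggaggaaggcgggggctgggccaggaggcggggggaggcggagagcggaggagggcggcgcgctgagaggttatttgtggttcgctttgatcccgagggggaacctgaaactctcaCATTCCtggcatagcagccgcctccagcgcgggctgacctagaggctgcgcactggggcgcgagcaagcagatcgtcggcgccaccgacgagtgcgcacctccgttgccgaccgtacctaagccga
Ccn1: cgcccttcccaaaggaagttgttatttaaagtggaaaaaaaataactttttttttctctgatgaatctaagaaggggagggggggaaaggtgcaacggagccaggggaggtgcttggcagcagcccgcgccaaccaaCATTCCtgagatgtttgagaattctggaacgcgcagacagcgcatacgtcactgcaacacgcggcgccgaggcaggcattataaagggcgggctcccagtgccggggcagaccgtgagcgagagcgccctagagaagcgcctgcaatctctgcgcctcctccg
Ccn2: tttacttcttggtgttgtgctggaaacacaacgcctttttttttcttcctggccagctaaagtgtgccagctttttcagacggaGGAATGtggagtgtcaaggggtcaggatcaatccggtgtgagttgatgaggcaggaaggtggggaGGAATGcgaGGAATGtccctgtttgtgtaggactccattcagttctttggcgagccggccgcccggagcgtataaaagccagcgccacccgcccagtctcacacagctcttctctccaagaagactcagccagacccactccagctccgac
The Ccn2 promoter held 3 copies, the others 1 each. The remaining promoters with a match were those of Ptpn14 and Nuak2. A match describes letters in this window and does not show that a TEAD factor binds there.

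Total counts were between 74024323 and 96185890 per sample, and levels are given as CPM, the usual depth-scaled count, with library sizes adjusted by edgeR's TMM factors. All 9 measured genes had at least 346 counts in every sample and passed the filter on low counts (at least 10 counts in at least 2 samples), with 12446 genes tested in all. Of 8 SC markers, 7 were above 1 CPM in every sample: Sox10, S100b, Ngfr, Erbb3, Pmp22, Cdh19 and L1cam. Gap43 lay under 1 CPM in all. The summed SC markers were at 6342 and 6412 CPM in Lenti-GFP and at 6583 and 6405 CPM in Lenti-AS. Single markers differed in both directions. At an unadjusted p under 0.05 by edgeR's quasi-likelihood test, S100b, Ngfr and Erbb3 were higher in Lenti-AS, and Pmp22, Cdh19 and Gap43 lower. Of all genes tested, 12.5% lay higher and 9.37% lower at that p, and no SC marker passed the cut-offs given below. Among 8 fibroblast markers, Thy1, Dcn, Lum and Fap lay under 1 CPM in every sample, while the summed list, made up almost wholly of collagen RNA, was at 3813 to 4259 CPM in Lenti-GFP and at 2814 to 4672 CPM in Lenti-AS. Of 7 macrophage markers 5, and of 7 endothelial and mural markers 4, were under 1 CPM in every sample. The summed macrophage markers were at 3.30 and 3.34 CPM in Lenti-GFP and at 3.97 and 4.36 CPM in Lenti-AS, and the endothelial and mural markers at 257 to 284 CPM and 241 to 295 CPM. Most of the endothelial and mural sum was Pdgfrb, at 262 and 236 CPM in Lenti-GFP and 224 and 279 CPM in Lenti-AS. Tek was lower in both Lenti-AS samples, at 15.3 and 14.7 CPM against 19.8 and 20.2 CPM in Lenti-GFP. Both Lenti-AS libraries stood apart for some genes: Lenti-AS 2 held 3396 CPM of red cell RNA against at most 11.4 CPM elsewhere, and 134 of 7802 genes averaging 10 CPM or more were at least 1.5 times higher in Lenti-AS 1 than in any other library, against 12 such genes for Lenti-AS 2 and 0 for each Lenti-GFP sample. In RNA from a whole culture, fewer cells of a type and less RNA per cell cannot be told apart.

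None of the 9 genes was called differentially expressed between Lenti-AS and Lenti-GFP. A gene was called at an adjusted p (Benjamini-Hochberg over all genes tested, edgeR's quasi-likelihood test) under 0.05 and a fold change of at least 1.3, the study's cut-offs, which 1.98% of all genes tested passed (1.31% higher and 0.667% lower in Lenti-AS). DESeq2, limma-voom and the likelihood ratio test also called 0 of the 9. At an unadjusted p under 0.05 there was 1, Tead1 (higher), where 12.5% of all genes lay higher and 9.37% lower, 21.8% together. The median log2 fold change of the 9 genes was 0.14, against 0.0071 over all genes tested, and it was 0.083 without Lenti-AS 1. Of the 9 genes, 5 had both Lenti-AS samples above both Lenti-GFP samples (Tead1, Tead3, Lats1, Lats2 and Nf2) and 0 had both below. Groups that did not overlap were found for 54.9% of all genes, 27.7% with Lenti-AS higher and 27.2% with Lenti-AS lower, so the share without overlap in either direction lay near that of all genes.

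**Figure D1:**
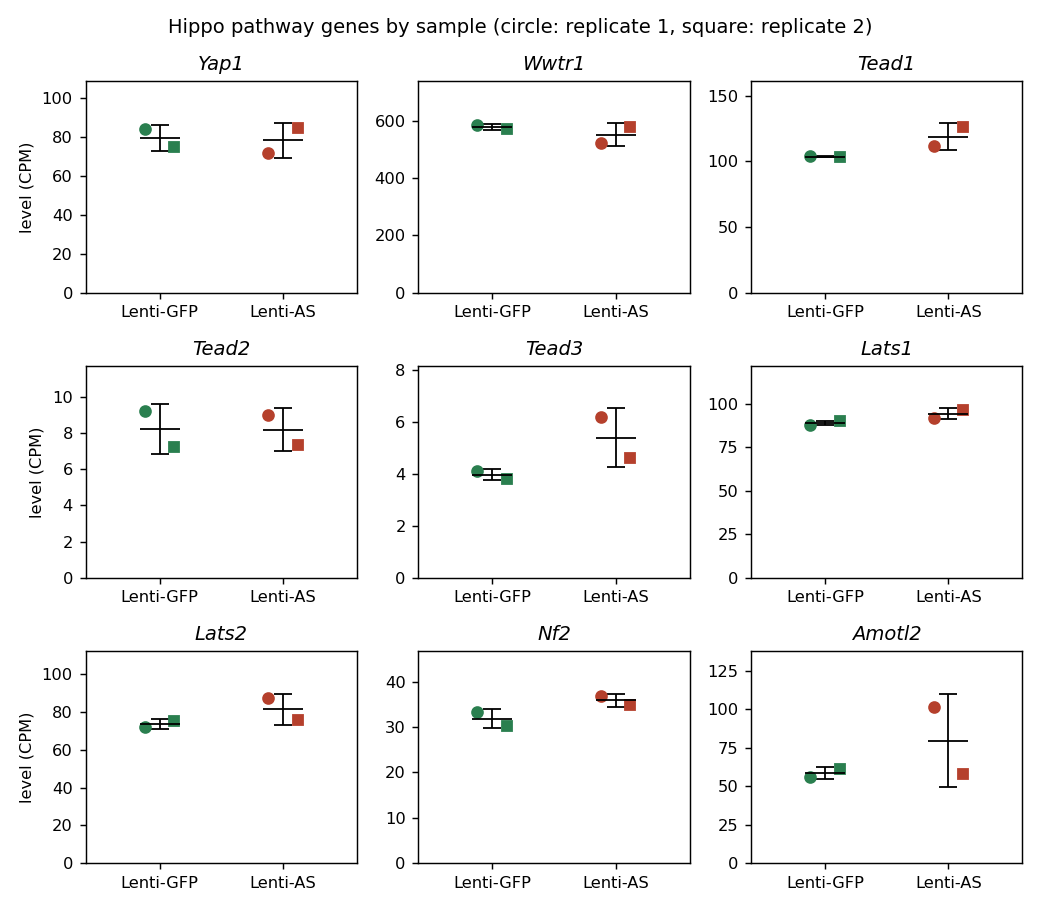
Level in CPM (vertical axis, from 0) of each measured gene in the 2 Lenti-GFP (green) and 2 Lenti-AS (red) samples, with circles for replicate 1, squares for replicate 2 and black bars for the mean ± SD. The groups overlap for Yap1, Wwtr1, Tead2 and Amotl2, and Amotl2 is high in Lenti-AS 1 alone, at 101.3 CPM against 55.7 to 61.3 CPM in the other samples.

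The coactivators were at similar levels in both groups. Yap1 was at 84.3 and 74.9 CPM in Lenti-GFP and at 71.9 and 84.3 CPM in Lenti-AS. Each group held 1 high and 1 low sample, and the groups overlapped. The means were 79.6 ± 6.62 and 78.1 ± 8.78 CPM (SD, n = 2 each), and the log2 fold change was -0.027 (adjusted p = 0.903 by edgeR's quasi-likelihood test). The 95% interval ran from 0.825-fold to 1.17-fold, so a change of 1.3-fold in either direction lay outside it. Wwtr1 was at 587 and 573 CPM in Lenti-GFP and at 524 and 579.5 CPM in Lenti-AS. Its lowest value was that of Lenti-AS 1, while Lenti-AS 2 lay between the Lenti-GFP samples. The log2 fold change of Wwtr1 was -0.072, with an interval from 0.851-fold to 1.06-fold (adjusted p = 0.555 by edgeR's quasi-likelihood test). Both coactivators were lowest in the same library, Lenti-AS 1.

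Among the TEAD factors, which carry YAP and TAZ to DNA, Tead1 had the smallest p of all 9 genes. It was at 104 and 103 CPM in Lenti-GFP and at 112 and 126 CPM in Lenti-AS. The groups did not overlap: the lower Lenti-AS value exceeded the higher control by 7.95 CPM, while the controls were 0.692 CPM apart and the Lenti-AS replicates 14.2 CPM apart. Its log2 fold change of 0.20 ± 0.074 (standard error) amounted to 1.15-fold, with an interval from 0.020 to 0.38 on the log2 scale, and did not pass the adjusted threshold by edgeR's quasi-likelihood test (unadjusted p = 0.035, adjusted p = 0.197). The log2 fold change of Tead1 was 0.28 without Lenti-AS 1 and 0.11 without Lenti-AS 2. Smaller unadjusted p-values were held by 17.7% of all genes tested. Tead3 was at 4.12 and 3.81 CPM in Lenti-GFP and at 6.18 and 4.60 CPM in Lenti-AS, from 346 to 542 counts. The Lenti-AS samples were higher, Lenti-AS 2 by only 0.478 CPM. Its log2 fold change was 0.44 (standard error 0.19, adjusted p = 0.237 by edgeR's quasi-likelihood test), with an interval from 0.992-fold to 1.87-fold. The log2 fold change of Tead3 was 0.21 without Lenti-AS 1 and 0.64 without Lenti-AS 2. Tead2 was at 9.22 and 7.26 CPM in Lenti-GFP and at 9.02 and 7.37 CPM in Lenti-AS, so that both Lenti-AS samples lay between the Lenti-GFP samples. Its log2 fold change was -0.0067, and the interval, from 0.747-fold to 1.33-fold, was too wide to exclude a change of 1.3-fold.

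By the distance between log2(CPM + 1) values centred over the 4 samples, the genes averaging 10 CPM or more with the pattern most like that of Tead1 were Cmtm4 (distance 0.0092), Sfmbt1 (0.016) and Gtf3c1 (0.022), among 7801 genes. With 4 samples, such closeness describes these libraries only.

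The LATS kinases, which inactivate YAP and TAZ, were slightly higher in both Lenti-AS samples. Lats1 was at 87.8 and 89.7 CPM in Lenti-GFP and at 91.9 and 96.3 CPM in Lenti-AS. The groups did not overlap, but the nearest samples were only 2.20 CPM apart, about the 1.91 CPM that separated the Lenti-GFP samples. The log2 fold change of Lats1 was 0.084 (interval 0.956-fold to 1.18-fold, adjusted p = 0.456 by edgeR's quasi-likelihood test). Lats2, itself a YAP/TAZ target, was at 72.0 and 75.4 CPM in Lenti-GFP and at 87.4 and 75.6 CPM in Lenti-AS. Only Lenti-AS 1 was clearly above the controls, since Lenti-AS 2 exceeded the higher Lenti-GFP sample by 0.169 CPM. Its log2 fold change was 0.14 (interval 0.952-fold to 1.28-fold, adjusted p = 0.382 by the same edgeR test). Without Lenti-AS 1 it was 0.036 and without Lenti-AS 2 it was 0.25. Nf2, whose product merlin activates LATS, was at 33.3 and 30.4 CPM in Lenti-GFP and at 37.0 and 34.9 CPM in Lenti-AS. Each Lenti-AS sample exceeded each control, with 1.57 CPM between the nearest samples against 2.96 CPM between the Lenti-GFP samples. The log2 fold change of Nf2 was 0.17 (interval 0.990-fold to 1.29-fold, adjusted p = 0.255 by the same edgeR test). For each of Lats1, Lats2 and Nf2, a rise of 1.3-fold lay outside the 95% interval.

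Amotl2, a scaffold that binds and sequesters YAP and TAZ and is also induced by them, had the largest fitted change of the 9 genes, and it rested on 1 library. It was at 55.7 and 61.3 CPM in Lenti-GFP, at 101.3 CPM in Lenti-AS 1 and at 58.1 CPM in Lenti-AS 2, from 5200, 5811, 8882 and 4369 counts. Lenti-AS 1 was thus 1.65 times the next highest sample, while Lenti-AS 2 lay between the Lenti-GFP samples. The fitted log2 fold change was 0.45 ± 0.24 (standard error), with an adjusted p of 0.337 by edgeR's quasi-likelihood test and an interval from 0.901-fold to 2.06-fold. Without Lenti-AS 1 the log2 fold change was -0.010. Without Lenti-AS 2 it was 0.79, in a fit that assumes the lone Lenti-AS 1 to vary as the Lenti-GFP samples do. Amotl2 was 1 of the 134 genes high in Lenti-AS 1 alone. In that library Sox10 was at 163 CPM, against at most 77.1 CPM in the other samples, and Col1a1 at 2131 CPM against at most 840.4 CPM. Whether these differences have a part in the level of Amotl2 was not tested.

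**Figure D2:**
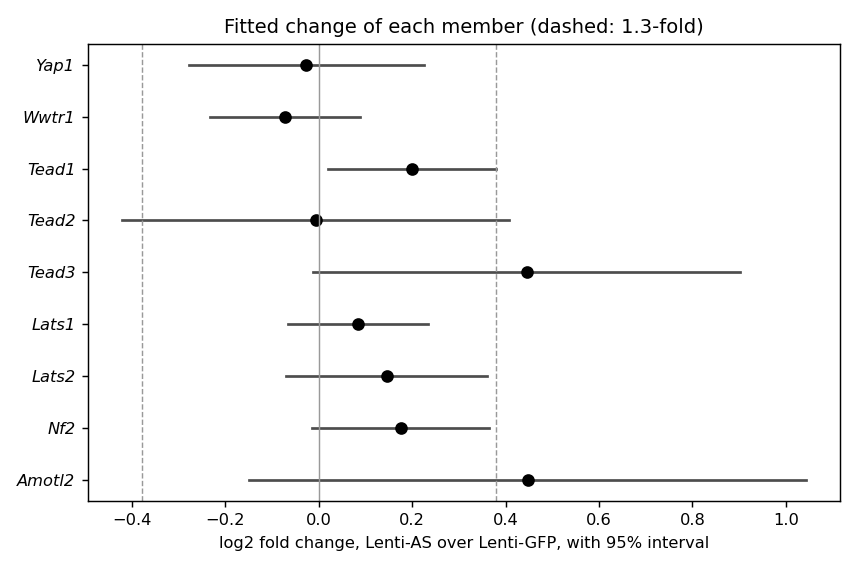
Fitted log2 fold change of Lenti-AS over Lenti-GFP (horizontal axis) for each measured gene, with dots for the estimate, lines for its 95% interval and dashed lines at 1.3-fold. The intervals of Yap1 and Wwtr1 lie inside the dashed lines, those of Tead3 and Amotl2 reach 1.87-fold and 2.06-fold, and that of Tead1 alone does not cross 0.

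The other genes of the pathway were read from lists of kinases, scaffolds and regulators. Of 22 tested genes in the list of the kinase core and its activators, 0 were called higher and 1 lower, where 1.31% and 0.667% of all genes were called. That gene was Rassf1, a scaffold that binds MST kinases. Rassf1 was at 88.5 and 85.8 CPM in Lenti-GFP and at 58.7 and 63.9 CPM in Lenti-AS. It was lower in both Lenti-AS samples than in either control, by more than the spread within either group, and Rassf1 fell by 0.51 on the log2 scale (standard error 0.072, adjusted p = 0.0389 by edgeR's quasi-likelihood test). The direction was the same without each sample in turn, but the call was lost without Lenti-GFP 1 (log2 fold change -0.48, adjusted p = 0.378) and without Lenti-GFP 2 (-0.53, adjusted p = 0.438), fits in which edgeR called at most 1 gene of the whole table. Stk38l, an NDR kinase related to LATS, had the next lowest fold change, at 93.7 and 97.0 CPM in Lenti-GFP and 74.1 and 78.4 CPM in Lenti-AS (log2 fold change -0.32, adjusted p = 0.071 by the same edgeR test). The highest fold changes of the list belonged to Dchs1, a protocadherin with 19 to 31 counts, at 0.70 (adjusted p = 0.322), and to Mink1, a kinase that can activate LATS, at 0.64 (adjusted p = 0.276). Mink1 was at 11.4 and 10.0 CPM in Lenti-GFP, 22.2 CPM in Lenti-AS 1 and 11.2 CPM in Lenti-AS 2, so its value, like that of Amotl2, came from Lenti-AS 1. The log2 fold change of Mink1 was 1.05 without Lenti-AS 2 and 0.064 without Lenti-AS 1.

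None of the remaining core genes was called, and their fold changes lay between those of Stk38l and Mink1. The MST scaffold Sav1 was at 107 and 105 CPM in Lenti-GFP and at 89.8 and 92.9 CPM in Lenti-AS, with a log2 fold change of -0.22 (adjusted p = 0.117 by edgeR's quasi-likelihood test). The LATS partner Mob1a was at 294 and 305 CPM in Lenti-GFP and at 263 and 267 CPM in Lenti-AS (-0.18, adjusted p = 0.138 by the same edgeR test). Map4k4, a kinase that acts on LATS beside the MST kinases, was at 732 and 735 CPM in Lenti-GFP and at 864 and 803 CPM in Lenti-AS (0.18, adjusted p = 0.152 by the same edgeR test). These 3 genes were chosen after their values were seen, from those with an unadjusted p under 0.05, of which the list held 1 with a higher and 4 with a lower level (12.5% and 9.37% of all genes). The MST kinases Stk3 and Stk4, named for their role after their values were seen, had log2 fold changes of -0.11 and 0.060. Over the 22 genes the median was -0.019, and 10 had a fitted log2 fold change above 0 and 12 below.

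Of 15 tested genes in the list of angiomotins, polarity proteins and pathway inhibitors, 0 were called in either direction by edgeR (1.31% of all genes higher, 0.667% lower). At an unadjusted p under 0.05 there were 3 with a higher and 3 with a lower level, where 12.5% and 9.37% of all genes lay. Ajuba, a LIM protein that holds LATS inactive at junctions, was the nearest to a call. It was at 49.2 and 50.3 CPM in Lenti-GFP and at 37.5 and 39.2 CPM in Lenti-AS, with both Lenti-AS samples below both controls (log2 fold change -0.38, adjusted p = 0.0557 by edgeR's quasi-likelihood test). The fitted fall of Ajuba, 1.298-fold, also lay just under the 1.3-fold cut-off. DESeq2 gave Ajuba an adjusted p of 0.000255 but did not call it. Sike1, of the phosphatase complex that opposes MST kinases, was the next lowest, at -0.17 (adjusted p = 0.215), and Strn3 of the same complex, chosen after its value was seen, was at -0.15 (adjusted p = 0.184). At the other end were Ptpn14, a phosphatase that binds YAP, at 0.41 (adjusted p = 0.290) and the polarity protein gene Patj at 0.39 (adjusted p = 0.213). The polarity genes Scrib and Llgl1, chosen after their values were seen, were at 0.39 (adjusted p = 0.106) and 0.22 (adjusted p = 0.115), and Scrib was at 81.0 and 69.1 CPM in Lenti-GFP and at 93.3 and 103 CPM in Lenti-AS. DESeq2 called 1 gene of the list higher, Scrib, with an adjusted p of 0.00453, and 4.86% of all genes to which it gave an adjusted p. Without Lenti-AS 1 edgeR called Scrib (log2 fold change 0.45), and without Lenti-AS 2 it called Ptpn14 (0.61) and Ajuba (-0.41).

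**Figure D3:**
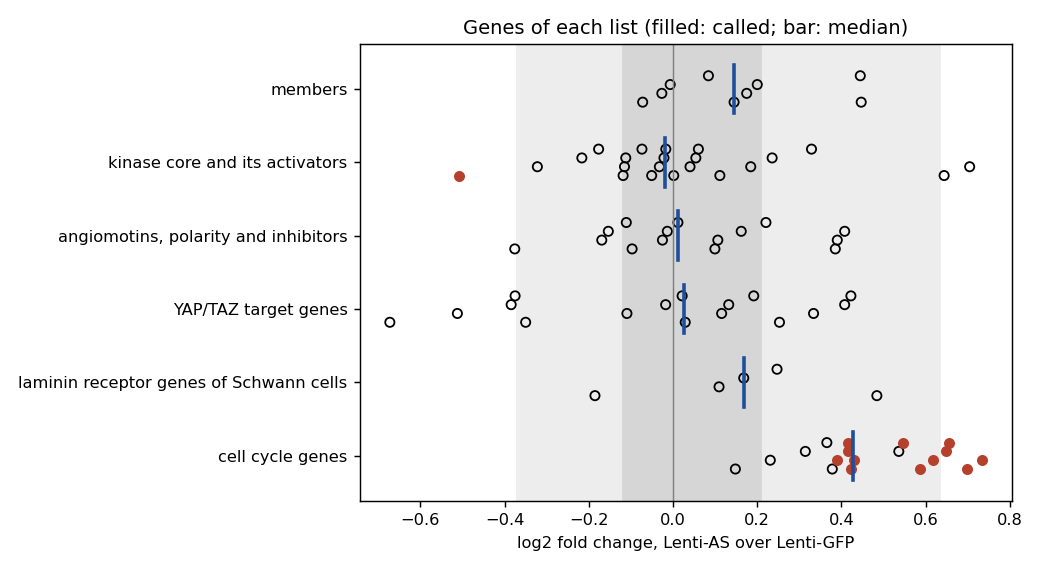
Log2 fold change of Lenti-AS over Lenti-GFP (horizontal axis) for the tested genes of each list, with filled dots for called genes, blue bars for list medians and grey bands for the middle 50% (dark) and 90% (light) of all genes tested. The medians of the kinase, inhibitor and target lists lie at -0.019, 0.012 and 0.025, and that of the cell cycle genes at 0.43.

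The YAP/TAZ target genes had levels that went in both directions. Of 16 tested targets, 0 were called by edgeR, where 1.31% of all genes were called higher and 0.667% lower. At an unadjusted p under 0.05 there were 2 higher and 3 lower (12.5% and 9.37% of all genes), and the median log2 fold change was 0.025. Groups that did not overlap were found for 4 targets with Lenti-AS higher and 6 with Lenti-AS lower, and for 54.9% of all genes. The 3 with a lower level at an unadjusted p under 0.05 were Ccn2, Ccn1 and Ankrd1, the targets most often used to read YAP/TAZ activity, of which Ccn1 and Ankrd1 were chosen after their values were seen. Ccn2, a secreted matricellular protein gene whose promoter above holds 3 copies of the element, was at 51.8 and 52.3 CPM in Lenti-GFP and at 42.1 and 30.8 CPM in Lenti-AS. The level was lower in both Lenti-AS samples, Lenti-AS 2 the more so, and the log2 fold change was -0.51 (standard error 0.15, adjusted p = 0.128 by edgeR's quasi-likelihood test). Ccn1, of the same family, was at 358 and 312 CPM in Lenti-GFP and at 243 and 270.5 CPM in Lenti-AS (-0.38, standard error 0.088, adjusted p = 0.0905 by the same edgeR test). Ankrd1, a nuclear ankyrin repeat protein gene, was at 10.6 and 10.3 CPM in Lenti-GFP and at 8.31 and 7.85 CPM in Lenti-AS (-0.38, standard error 0.10, adjusted p = 0.124 by the same edgeR test). All 3 were lower in both Lenti-AS samples than in both Lenti-GFP samples, and none passed the adjusted threshold. DESeq2, the tool the study used, called Ccn2 (adjusted p = 0.00791) and Ccn1 (adjusted p = 0.00128) lower, where it called 1.39% of the genes for which it gave an adjusted p lower.

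Tgfb2, a growth factor gene with 33 to 77 counts, had the lowest fold change of the targets, at -0.67 (adjusted p = 0.243 by edgeR's quasi-likelihood test). The highest fold change belonged to Gadd45b, a stress-induced gene. Gadd45b was at 38.2 and 39.4 CPM in Lenti-GFP and at 49.5 and 54.6 CPM in Lenti-AS. Its groups were further apart than the samples within either, and the log2 fold change of 0.42 had an adjusted p of 0.0577 by edgeR's quasi-likelihood test and of 0.00024 by DESeq2, which called it higher, as it did 4.86% of genes. Next came Ptpn14, which is also in the inhibitor list and whose promoter also holds the CATTCC element. It was at 6.76 and 5.31 CPM in Lenti-GFP and 9.21 and 6.78 CPM in Lenti-AS, where Lenti-AS 2 exceeded Lenti-GFP 1 only slightly. Fjx1, chosen after its value was seen, was at 8.60 and 8.64 CPM in Lenti-GFP and at 11.8 and 9.92 CPM in Lenti-AS (0.33, adjusted p = 0.195 by the same edgeR test). The size of the change turned on single libraries for some targets. Ccn2 was at -0.76 without Lenti-AS 1 and at -0.30 without Lenti-AS 2. Ptpn14 was at 0.17 without Lenti-AS 1 and at 0.61 without Lenti-AS 2, and Fjx1 at 0.20 and 0.45. Nuak2, named after its value was seen and with the element in its promoter, was at 0.25 with all samples and at 0.46 without Lenti-AS 2. With each sample left out in turn, Gadd45b ran from 0.35 to 0.49, Ankrd1 from -0.42 to -0.34 and Ccn1 from -0.48 to -0.28.

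**Figure D4:**
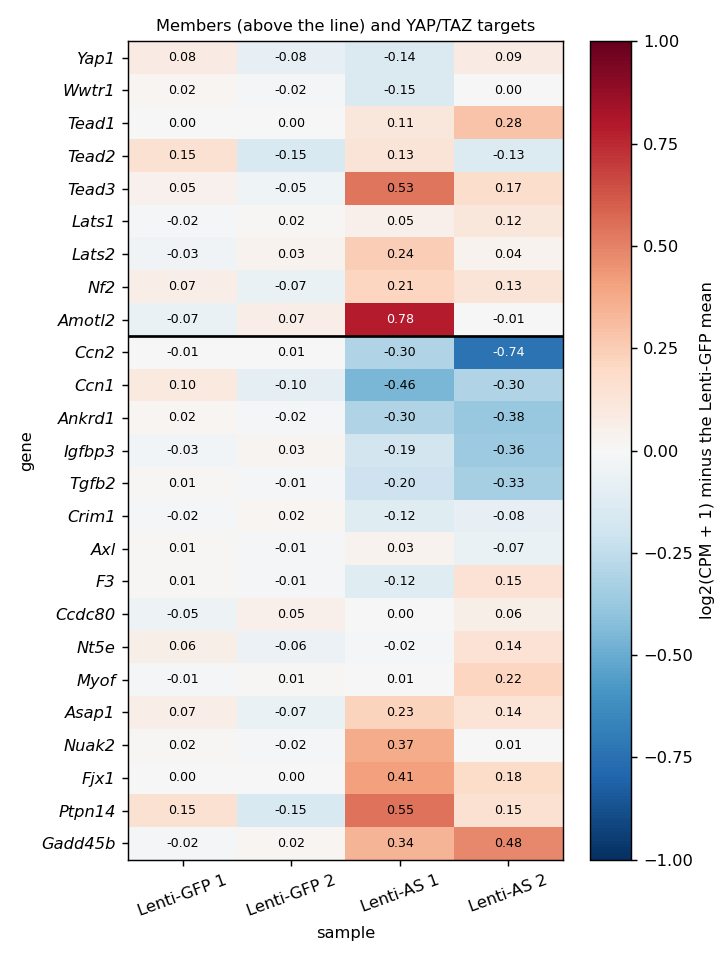
Level of each measured member (above the line) and YAP/TAZ target (below it) in each sample, as log2(CPM + 1) minus the mean of the 2 Lenti-GFP samples, on a colour scale from -1 to 1 with the value printed in each cell. Ccn2, Ccn1 and Ankrd1 are below 0 in both Lenti-AS samples and Gadd45b is above 0 in both, while Amotl2 is at 0.78 in Lenti-AS 1 and at -0.0078 in Lenti-AS 2.

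Laminin receptors anchor SCs to their basal lamina, and some of them are under YAP/TAZ control in these cells. Of 5 tested receptor genes, 0 were called by edgeR, with 3 higher and 1 lower at an unadjusted p under 0.05, where 12.5% of all genes lay higher and 9.37% lower. All 5 had groups that did not overlap, 4 with Lenti-AS higher and 1 lower, as had 54.9% of all genes. Dag1, which encodes dystroglycan, was at 428 CPM in both Lenti-GFP samples, at 707 CPM in Lenti-AS 1 and at 491 CPM in Lenti-AS 2. Each Lenti-AS sample was higher than the controls, but they differed from each other by more than Lenti-AS 2 did from the controls, and the log2 fold change of 0.48 had a standard error of 0.16 (adjusted p = 0.168 by edgeR's quasi-likelihood test). Dag1 was at 0.20 without Lenti-AS 1 and at 0.72 without Lenti-AS 2. The integrin genes Itgb4, Itga6 (chosen after its value was seen) and Itga7 had log2 fold changes of 0.25, 0.17 and 0.11 (adjusted p = 0.119, 0.197 and 0.425), and Itgb1, which encodes the β subunit shared by most of these receptors, was at -0.19 (adjusted p = 0.152). Itgb1 was at 1312 and 1349 CPM in Lenti-GFP and at 1209 and 1131 CPM in Lenti-AS. The study reported cell cycle processes among those enriched in its upregulated genes. In the same samples the cell cycle genes listed here moved with the groups. Of 18 tested, 12 were called higher and 0 lower, where 1.31% and 0.667% of all genes were called. Their summed level was 1537 and 1596 CPM in Lenti-GFP and 2139 and 2105 CPM in Lenti-AS. Their part in the levels of the Hippo genes was not tested.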

How the data were processed

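RNA-seq of 4 samples of cultured rat SCs was analysed, 2 Lenti-GFP and 2 Lenti-AS. Per the study's methods, paired-end reads of 50 bp were mapped by hisat2 onto rn6 (the submitters' processing notes name GSNAP), and featureCounts summed them over RefSeq exons. The counts deposited by the authors are whole numbers without normalization. Versions and the strand setting are not given in the sources used here, so genes with an antisense or overlapping partner are uncertain. A row that repeats the header (1) was dropped, and every column of sample values (0 left out) was mapped by its name to a sample label. Gene lengths of rn6 were not used here, so levels were not compared between genes.

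A gene entered the test with 10 or more counts in 2 or more samples. The test was that of edgeR 4.0.16 under R 4.3.3 (TMM factors, glmQLFit, glmQLFTest, no replicate term), with Benjamini-Hochberg adjustment over all 12446 genes. Intervals of 95% use the standard error from the F statistic and 5.95 degrees of freedom. Simulated counts with 200 changed genes (12446 genes, 3 simulations of this comparison) gave 41.7% recovery of 1.5-fold and 78.0% of 2-fold changes. DESeq2 1.42.0, limma-voom (limma 3.58.1), other scalings, filters and cut-offs, a replicate block and leaving out each sample were the alternatives. The labels speak of biological replicates but name no separate cultures, so p-values measure the spread between these samples. A permutation test of 2 against 2 cannot give a two-sided p under 0.333. The members and the gene lists were chosen with earlier results of these data known. Some SC markers are not reported here. Named genes were all members and, of each list, every called gene and the 2 highest and 2 lowest fold changes, plus 3 genes most like the member with the smallest p, and genes outside this rule are marked.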

Additional observations from a re-analysis of the deposited data

How the results depend on the processing

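The 9 Hippo genes gave 0 calls in either direction under all 17 alternatives except one, the fit without Lenti-AS 2. That exception concerned Amotl2 (log2 fold change 0.79) and Tead3 (0.64). The fit assumes the lone Lenti-AS 1 to vary as the Lenti-GFP samples do. With each sample left out in turn, members called higher ranged from 0 to 2, kinase core genes called higher from 0 to 1 and lower from 0 to 1, inhibitor list genes higher from 0 to 1 and lower from 0 to 1, targets higher from 0 to 3 and lower from 0 to 2, laminin receptors higher from 0 to 1, and all genes higher from 0 to 1260 and lower from 1 to 278. Ptpn14 stands in both the inhibitor and the target list and was counted in each. Against 163 higher and 83 lower of all genes, DESeq2 called 488 and 139, the likelihood ratio test 374 and 147, and a fold change of at least 1.5 left 81 and 43. DESeq2 called 1 gene of the inhibitor list higher, 1 target higher and 2 targets lower. The likelihood ratio test called 1 target higher, and with no filter on low counts 1 target was called higher and 1 inhibitor list gene lower (Ajuba). A fold change of at least 1.5 left 0 kinase core genes lower. Same-numbered samples share no stated culture and their deviations from the group means had a correlation of -0.018 over genes. A replicate block left 3 genes called higher and 14 lower, with 0 kinase core genes among them, and Rassf1 had an adjusted p of 0.0896. The sign of genes near 0 turned. Yap1 was at 0.0055 with library totals, and from -0.15 to 0.083 with each sample left out (0.064 without Lenti-GFP 1). Tead2 was at 0.0046 with limma-voom, 0.0043 with upper-quartile factors, 0.024 with library totals and from -0.17 to 0.18 with each sample left out (0.13 without Lenti-AS 2). Amotl2 ran from -0.010 without Lenti-AS 1 to 0.79 without Lenti-AS 2. The medians of the kinase core, inhibitor and target lists, all near 0, changed sign with some samples left out. That of the kinase core list was 0.013 with library totals, which moved the median of all genes to 0.039. The cause of these differences was not tested. Dchs1 and Tgfb2 had at most 77 counts in any sample, and calls were not tested against depth.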

Other observations

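Among genes in the lists, Mink1, Sox10, Col1a1 and Col1a2 joined Amotl2 in being at least 1.5 times higher in Lenti-AS 1 than in any other library, a pattern chosen after the values were seen. Sox10, the factor that specifies the SC lineage, was at 77.1, 72.6, 163 and 61.2 CPM in Lenti-GFP 1, Lenti-GFP 2, Lenti-AS 1 and Lenti-AS 2. The fibrillar collagen genes Col1a1 and Col1a2 were at 2131 and 339.6 CPM in Lenti-AS 1 and at 290.1 and 119.6 CPM in Lenti-AS 2, with the Lenti-GFP samples between these values. Col3a1, another fibrillar collagen gene, named after its value was seen, did not share this pattern. It was at 3260 and 2955 CPM in Lenti-GFP, 2198 CPM in Lenti-AS 1 and 2400 CPM in Lenti-AS 2. Its log2 fold change was -0.43 (adjusted p = 0.052 by edgeR's quasi-likelihood test). The tafazzin gene, whose row is named Taz, was at 47.5 and 45.3 CPM in Lenti-GFP and at 39.1 and 45.3 CPM in Lenti-AS.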
